A study of Homo sapiens with 8 samples.

Results

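The genes described here build the nuclear lamina and the membrane proteins that anchor it. They are 9 of the 25593 gene rows of an RNA sequencing table, picked by symbol: the lamin genes LMNA, LMNB1 and LMNB2, the inner nuclear membrane genes LBR, EMD and TMPO, and SUN1, SUN2 and SYNE1, which link the nucleus to the cytoskeleton. LMNA and LBR lie on chromosome 1, LMNB1 on 5, SYNE1 on 6, SUN1 on 7, TMPO on 12, LMNB2 on 19, SUN2 on 22 and EMD on X. The set was put together because LMNA stood higher with cinobufagin in both cell lines studied. The changes of LMNA with the drug are therefore given as a description, with no test.

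Lamins are intermediate filament proteins that form a mesh under the inner nuclear membrane. LMNA gives rise to lamins A and C by alternative splicing, and LMNB1 and LMNB2 encode the B-type lamins, which most cells make throughout life. LBR, EMD and TMPO encode proteins that hold lamins and chromatin at the membrane, while SUN proteins and nesprins such as that of SYNE1 span the envelope as the LINC complex. In blood cells A-type lamins are usually scarce, a low amount goes with a soft and deformable nucleus, and inherited loss of LBR gives neutrophils with too few nuclear lobes.

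Messenger RNA was sequenced from Kasumi-1 cells with 100 nM cinobufagin for 24 h, untreated Kasumi-1 cells, HL60 cells with 100 nM cinobufagin for 24 h, and untreated HL60 cells, with 2 libraries in each of the 4 groups. Kasumi-1 comes from a myeloblastic leukaemia and carries the RUNX1-RUNX1T1 fusion. HL60, of promyelocytic type, carries extra copies of MYC, and cinobufagin is a toad venom steroid that inhibits the Na+/K+-ATPase. Both are established lines. The untreated cells are described only as cultured without the drug, and Kasumi-1 was grown with a larger share of fetal bovine serum, so line and medium cannot be told apart. Whether libraries of the same group stem from different cultures is not stated. P-values here reflect library-to-library spread alone, and that spread may be technical.

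Levels are in FPKM, which divides a gene's fragments by its length and by library size. Means carry the SD of both libraries (n = 2). A change is a difference of log2(FPKM + 1), tested with limma over 12511 genes with Benjamini-Hochberg adjustment, and an adjusted p under 0.05 is a call. Over all genes tested, the median absolute log2 change with cinobufagin was 0.17 in Kasumi-1 and 0.567 in HL60. The libraries held 10623 to 11371 genes at FPKM 1 or more. Relative depth, read from genes with low values, ran between 0.787 and 1.06, with treated Kasumi-1 replicate 1 the lowest. The lines matched their labels, since the Kasumi-1 genes RUNX1T1, CD34 and TRH were at 0 throughout HL60 and RUNX1T1 stood between 16.1 and 20.8 FPKM in Kasumi-1. In bulk libraries a change in a cell's RNA and a change in the share of cells that carry it cannot be told apart, and each FPKM is relative to the other genes of its library.

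Among the lamins, only LMNA moved by a large amount. It reached 8.001 and 8.197 FPKM in Kasumi-1 with cinobufagin, against 2.93 and 2.71 FPKM in untreated Kasumi-1. In HL60 it reached 442 and 463 FPKM with cinobufagin, against 13.7 and 15.5 FPKM without it. The treated and untreated libraries did not overlap in either line, and treated Kasumi-1 remained below untreated HL60. Mean FPKM was 2.87-fold the untreated mean in Kasumi-1 and 30.9-fold in HL60. On the log2 scale the change was 1.25 (SE 0.07) in Kasumi-1 and 4.86 (SE 0.07) in HL60, a difference of −3.61 (SE 0.10). Ranked by log2 change among the 12511 genes, LMNA stood at place 69 in Kasumi-1 and at place 40 in HL60. These are the values that chose the set, so their SEs describe spread between libraries and are no test.

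**Figure D1:**
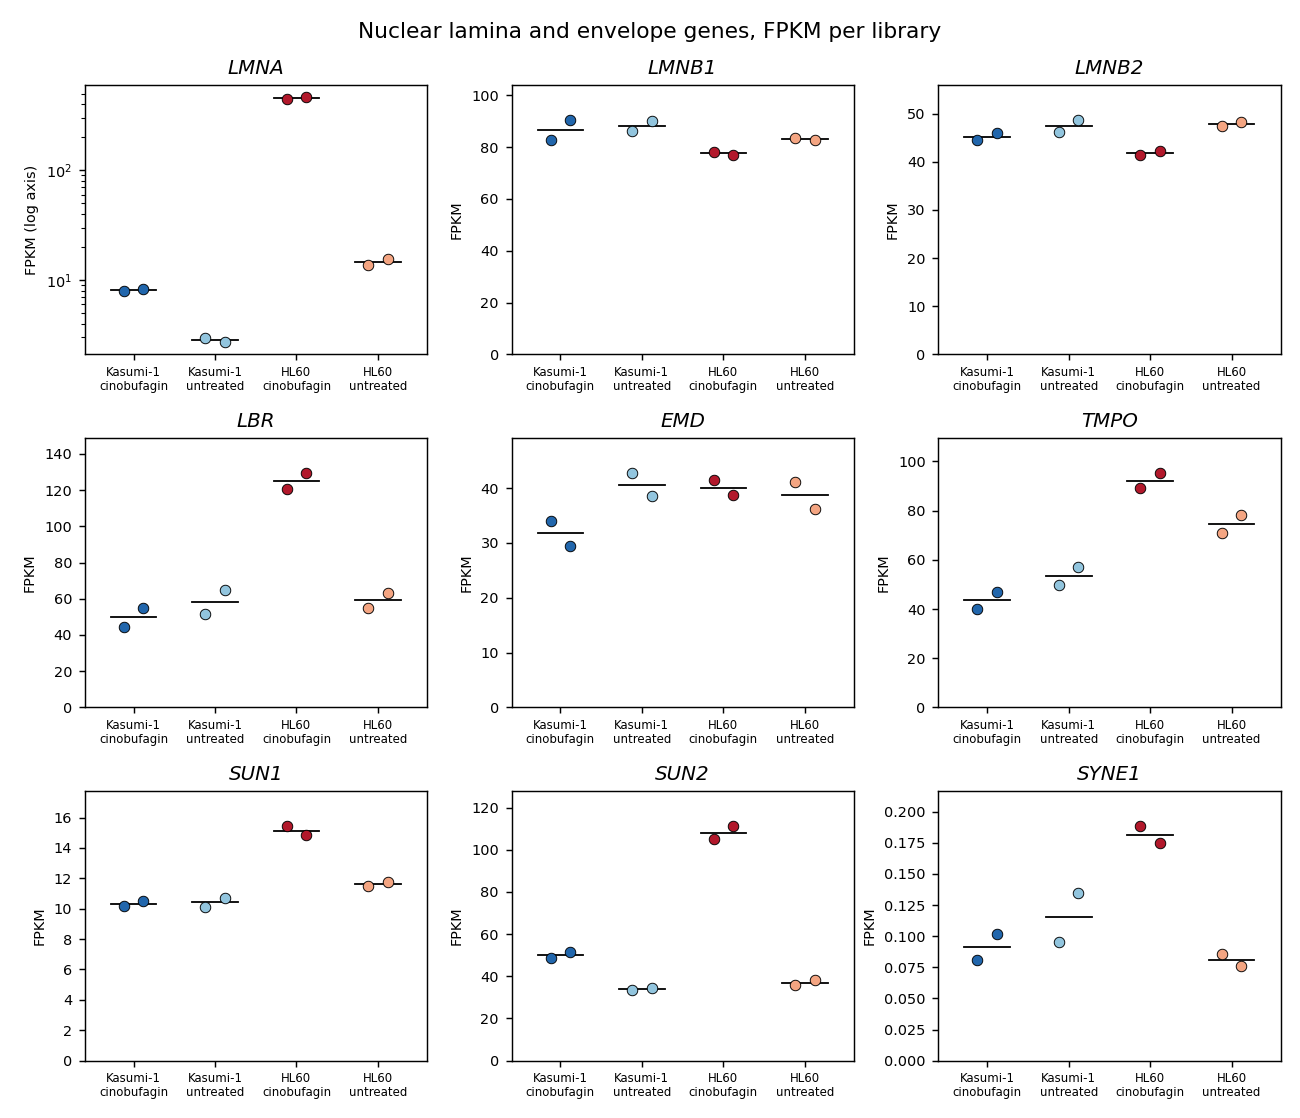
FPKM of the 9 genes in each of the 8 libraries. Each point is a library, each line the mean of a group, and the LMNA axis is logarithmic while the others start at 0. LMNA, SUN2 and LBR stand out in treated HL60, with means of 453, 108 and 125 FPKM.

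The B-type lamins stayed near their untreated levels. LMNB1, a B-type lamin gene often switched down in senescent cells, had 82.8 and 90.4 FPKM in treated Kasumi-1 and 86.3 and 90.0 FPKM in untreated Kasumi-1. HL60 had 78.2 and 77.0 FPKM with the drug and 83.4 and 82.7 FPKM without it. The Kasumi-1 groups overlapped, and the HL60 groups lay a few FPKM apart. Neither change was called (limma, log2 −0.03, 95% interval −0.16 to 0.11, adjusted p = 0.778 in Kasumi-1; log2 −0.10, −0.23 to 0.04, adjusted p = 0.153 in HL60). Quantile normalization gave HL60 a call for LMNB1 (log2 −0.19, adjusted p = 0.0262).

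LMNB2, the second B-type lamin gene, had 44.5 and 45.97 FPKM in treated Kasumi-1, against 46.3 and 48.7 FPKM in untreated Kasumi-1. The corresponding values were 41.4 and 42.2 FPKM in treated HL60 and 47.6 and 48.3 FPKM in untreated HL60. Both treated libraries were below both untreated ones in each line. LMNB2 fell in HL60 by 0.19 on the log2 scale (SE 0.05, limma adjusted p = 0.00832), to 0.872 of the untreated mean. It was not called in Kasumi-1 (log2 −0.07, 95% interval −0.18 to 0.04, adjusted p = 0.3302). The difference between the lines was not called either (log2 0.12, adjusted p = 0.141). That difference was called after quantile normalization (log2 0.28, adjusted p = 0.0135) and in a fit with the replicate number as a block (adjusted p = 0.0422). TIMM13, which overlaps LMNB2 on the same strand in GENCODE, had 35.0 and 30.1 FPKM in treated Kasumi-1, against 45.9 and 40.5 untreated. HL60 had 14.8 and 13.1 FPKM of TIMM13 with the drug, against 69.6 and 61.7 without it. How reads of the shared part were assigned is not given in the sources used here.

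The values are per gene and do not separate lamin A from lamin C. Lamin A and the B-type lamins end in a CaaX box, which is farnesylated, and lamin C lacks one. The last 42 coding bases of lamin A and the B-type lamins, stop codon included, show the box and are given here from GENCODE release 29 transcripts, 5′ to 3′, with the 4 codons of the CaaX box in capitals.
LMNA, lamin A (LMNA-206): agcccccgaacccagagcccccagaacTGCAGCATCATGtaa
LMNB1 (LMNB1-201): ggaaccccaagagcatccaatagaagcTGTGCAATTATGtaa
LMNB2 (LMNB2-201): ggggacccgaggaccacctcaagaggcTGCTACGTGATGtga
The first 1699 coding bases of the lamin A and lamin C transcripts are identical. Lamin A has 664 codons before its stop and lamin C has 572, against 586 in LMNB1 and 620 in LMNB2.

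FPKM is scaled to length, so the 3 lamin genes can be set side by side within a library. LMNA made up 5.91% and 5.67% of their summed FPKM in treated Kasumi-1, against 2.16% and 1.92% in untreated Kasumi-1. In HL60 its share was 78.7% and 79.5% with cinobufagin and 9.48% and 10.6% without. LMNA thus stood far below LMNB1 in 6 libraries and above it only in treated HL60. The ratio of LMNA to LMNB1 was 0.0966 and 0.0906 in treated Kasumi-1 and 0.0339 and 0.0302 in untreated Kasumi-1. It was 5.65 and 6.02 in treated HL60 and 0.164 and 0.188 in untreated HL60. The summed FPKM of the lamin genes was 140 ± 6.5 in treated and 138 ± 4.2 in untreated Kasumi-1, and 572 ± 14 in treated and 146 ± 1.3 in untreated HL60. Among tested genes, LMNA lay at the 48.4th and 48.0th percentile of FPKM in treated Kasumi-1 and at the 24.2nd and 22.5th untreated. In HL60 it lay at the 98.6th and 98.7th percentile with the drug and at the 61.8th and 64.8th without.

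**Figure D2:**
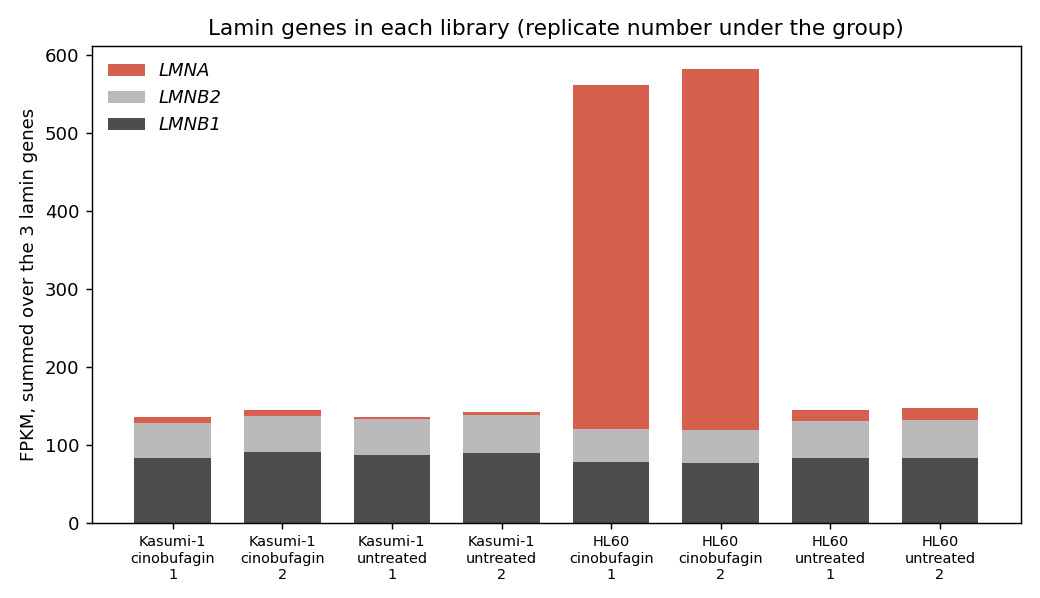
Summed FPKM of LMNB1, LMNB2 and LMNA in each library, stacked. The B-type part is of similar height in all 8 libraries, and LMNA adds 442 and 463 FPKM in the treated HL60 libraries.

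Of the inner nuclear membrane genes, LBR rose in HL60. LBR encodes the lamin B receptor, which binds B-type lamins and heterochromatin and also has a sterol reductase domain. It had 44.7 and 54.9 FPKM in treated Kasumi-1 and 51.8 and 64.6 FPKM in untreated Kasumi-1, and those groups overlapped. In HL60 it had 121 and 129 FPKM with the drug, above the 55.2 and 63.1 FPKM of untreated cells. The rise in HL60 was 2.11-fold in mean FPKM (log2 1.07, SE 0.14, limma adjusted p = 0.000445). In Kasumi-1 the log2 change was −0.22, with a 95% interval from −0.56 to 0.12 (adjusted p = 0.295). The changes differed between the lines by −1.29 (SE 0.20, limma adjusted p = 0.00152). In each group the library numbered 2 had more LBR than the library numbered 1. Within numbers 1 and 2 the log2 change was −0.21 and −0.23 in Kasumi-1, and 1.12 and 1.02 in HL60. With the replicate number as a block, the Kasumi-1 change of LBR was called (limma adjusted p = 0.0327).

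The promoter table held a single start for LBR and a single start for LMNB2, which allows a comparison of the gene of the receptor with the gene of a lamin it binds. The 250 bases before each start are from RefSeq, build GRCh38.p14, printed 5′ to 3′ along the gene. Capitals mark an AP-1 motif, TGACTCA, in LBR, and a GC box, GGGCGG, in LMNB2, each searched on both strands.
LBR, chr1:225428822-225429071, minus strand: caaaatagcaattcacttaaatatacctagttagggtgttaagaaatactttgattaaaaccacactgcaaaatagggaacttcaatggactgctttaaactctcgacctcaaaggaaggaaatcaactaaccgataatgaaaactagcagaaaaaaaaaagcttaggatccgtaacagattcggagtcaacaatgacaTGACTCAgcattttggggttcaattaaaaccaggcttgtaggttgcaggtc
LMNB2, chr19:2456960-2457209, minus strand: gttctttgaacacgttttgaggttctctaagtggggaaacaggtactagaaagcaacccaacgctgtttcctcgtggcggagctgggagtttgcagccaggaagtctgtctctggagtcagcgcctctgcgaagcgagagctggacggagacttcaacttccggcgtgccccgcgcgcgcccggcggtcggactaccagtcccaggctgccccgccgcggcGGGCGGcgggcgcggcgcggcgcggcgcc
The AP-1 motif starts 51 bases before the LBR start, and no GC box was found in that window. Of 35116 windows of this length in the table, 4.2% held the AP-1 motif and 42.6% a GC box. The 17 windows of 8 of the genes (SUN1 had none) held the AP-1 motif in 2 places, in LBR and in 1 of the 3 windows of SUN2, 132 bases before its start. The E-box CACGTG, the site of MYC and MAX, was found once, in 1 of the 2 windows of LMNB1, against 6.34% of all windows. A match says only that the letters are present.

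EMD encodes emerin, a LEM-domain protein that binds lamin A. It was lower with the drug in Kasumi-1 and close to its untreated level in HL60. It had 33.99 and 29.5 FPKM in treated Kasumi-1, below the 42.7 and 38.6 FPKM of untreated Kasumi-1. In HL60 the treated libraries had 41.4 and 38.7 FPKM and the untreated ones 41.1 and 36.2 FPKM, and they overlapped. EMD fell in Kasumi-1 by 0.35 on the log2 scale (SE 0.10, limma adjusted p = 0.0417) and was not called in HL60 (log2 0.05, 95% interval −0.18 to 0.28, adjusted p = 0.668). The difference between the lines was −0.40 (SE 0.14, adjusted p = 0.0404). The Kasumi-1 call ended without treated HL60 replicate 1 or 2 (adjusted p = 0.0640 and 0.0639), without untreated Kasumi-1 replicate 1 or 2 (0.169 and 0.0725), without treated Kasumi-1 replicate 2 (0.158), without the filter on low values (0.135), after median ratio rescaling (0.0845), after quantile normalization (0.0539) and with only the 4 Kasumi-1 libraries (0.106). The call for the difference ended in 8 of 16 alternatives (adjusted p up to 0.128), among them without untreated HL60 replicate 2 (0.117), treated HL60 replicate 1 or 2 (0.116 and 0.0620), untreated Kasumi-1 replicate 1 (0.113) or treated Kasumi-1 replicate 2 (0.105).

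TMPO, the gene of the LAP2 proteins, which carry a LEM domain and bind lamins and chromatin, moved in opposite directions in the means of the lines. It had 40.1 and 47.0 FPKM in treated Kasumi-1, against 49.5 and 57.0 FPKM in untreated Kasumi-1. Its values were 89.0 and 95.1 FPKM in treated HL60, against 70.7 and 78.3 FPKM in untreated HL60. The groups did not overlap in either line. TMPO rose in HL60 by 0.30 on the log2 scale (SE 0.10, limma adjusted p = 0.0352), and its log2 change of −0.29 in Kasumi-1 was not called (95% interval −0.54 to −0.04, adjusted p = 0.0898). The changes differed by −0.59 (SE 0.15, adjusted p = 0.0124; 0.0563 without the filter on low values). The HL60 call ended without untreated replicate 1 (adjusted p = 0.167), without treated replicate 1 (0.0662) or treated replicate 2 (0.151), without the filter on low values (0.121) and after quantile normalization (0.123). Like LBR, TMPO was higher in the library numbered 2 of every group, and EMD was lower there. With the replicate number as a block, the Kasumi-1 change of TMPO was called (limma adjusted p = 0.0047). No label ties the numbers to a batch, and that fit was not used for the calls.

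SUN2 was the member that rose in both lines besides LMNA. SUN2 and SUN1 encode inner membrane proteins whose domain in the envelope lumen holds nesprins. SUN2 had 48.7 and 51.6 FPKM in treated Kasumi-1, against 33.7 and 34.6 FPKM in untreated Kasumi-1. In HL60 it had 105 and 111 FPKM with cinobufagin, against 35.7 and 38.2 FPKM without. Both treated libraries were above both untreated ones in each line, and the untreated lines were close to each other. The rise was 1.47-fold in mean FPKM in Kasumi-1 (log2 0.54, SE 0.06, limma adjusted p = 0.00252) and 2.93-fold in HL60 (log2 1.52, SE 0.06, adjusted p = 1.69e-06). The change was smaller in Kasumi-1 than in HL60, with a difference of −0.98 (SE 0.08, adjusted p = 0.000104). Its calls held in all alternatives, with adjusted p up to 0.0383 in Kasumi-1 and 0.000426 in HL60.

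SUN1 changed in HL60 by less. It had 10.2 and 10.5 FPKM in treated Kasumi-1 and 10.1 and 10.7 FPKM in untreated Kasumi-1, and those groups overlapped. In HL60 it had 15.4 and 14.8 FPKM with the drug, above the 11.5 and 11.8 FPKM without it. SUN1 rose in HL60 by 0.35 on the log2 scale (SE 0.06, limma adjusted p = 0.00117). In Kasumi-1 the change was −0.01, with a 95% interval from −0.15 to 0.12 (adjusted p = 0.909), and the difference between the lines was −0.36 (SE 0.08, adjusted p = 0.00689). SUN2 stood at 4.80 and 4.92 times SUN1 in treated Kasumi-1, at 3.33 and 3.23 times in untreated Kasumi-1, at 6.82 and 7.485 times in treated HL60, and at 3.105 and 3.25 times in untreated HL60.

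Both SUN genes overlap other genes in GENCODE, and the strand setting of the quantification is not given in the sources used here. GTPBP1, opposite to SUN2, had 13.1 and 13.8 FPKM in treated and 11.5 and 13.6 in untreated Kasumi-1, and 24.3 and 24.8 in treated and 13.7 and 14.5 in untreated HL60. DNAL4, on the strand of SUN2, had 5.98 and 6.19 FPKM in treated Kasumi-1, above the 4.33 and 4.23 FPKM of untreated Kasumi-1. In HL60 DNAL4 had 6.92 and 6.39 FPKM with the drug and 7.19 and 5.72 without. GET4, on the strand of SUN1, ran between 12.9 and 14.1 FPKM over the Kasumi-1 libraries. In HL60 GET4 had 51.5 and 49.4 FPKM with the drug and 21.0 and 19.9 without. The part of these genes in the values of SUN2 and SUN1 was not tested.

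SYNE1, the gene of the giant nesprin-1, which reaches from the SUN proteins to actin, was close to the floor of the table. It had 0.0806 and 0.101 FPKM in treated Kasumi-1 and 0.0954 and 0.135 FPKM in untreated Kasumi-1. In HL60 it had 0.188 and 0.175 FPKM with the drug and 0.0860 and 0.0757 FPKM without. It did not reach the filter of FPKM 1 in 2 libraries and was not tested. With it, the set holds 8 genes that passed the filter and 1 that did not.

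**Figure D3:**
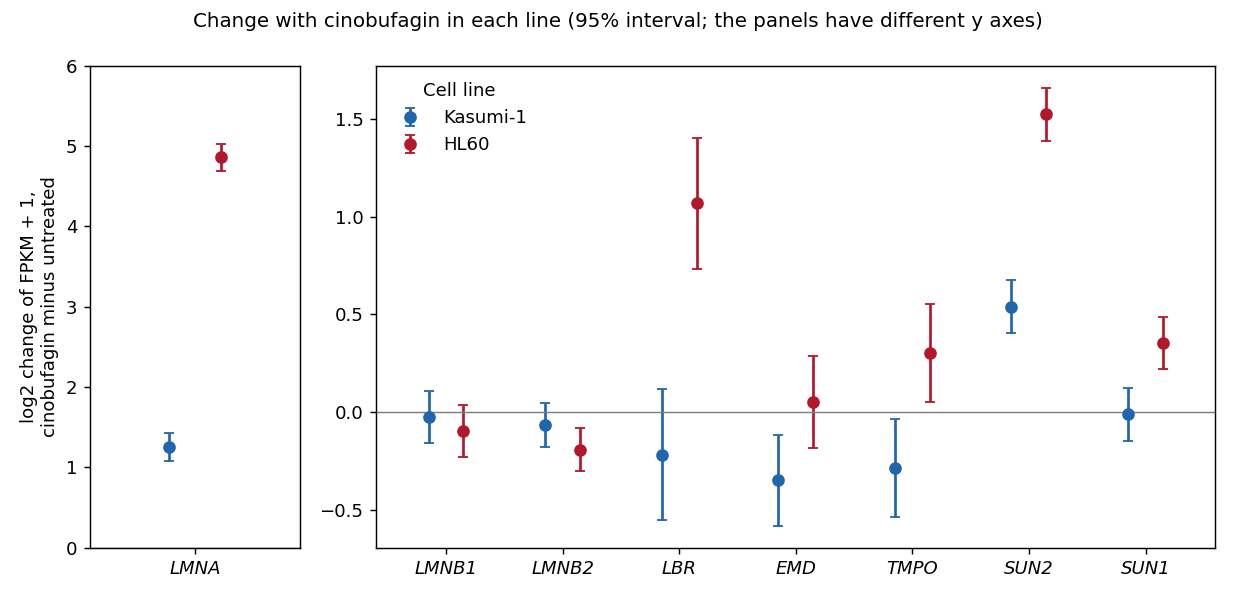
Log2 change of FPKM + 1 with cinobufagin in each line, for LMNA (left, own axis) and the 7 genes with a test (right), with 95% intervals from limma. The LMNA changes chose the set, so their intervals describe spread between libraries and are no test. SUN2 lies above 0 in both lines, at 0.54 in Kasumi-1 and 1.52 in HL60, while LBR, TMPO and SUN1 lie higher in HL60 than in Kasumi-1.

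Leaving LMNA aside, 2 of 7 tested members were called in Kasumi-1, SUN2 higher and EMD lower, where 26.3% of all 12511 genes were called, 10.1% higher and 16.2% lower. In HL60, 5 of 7 were called, with LBR, TMPO, SUN1 and SUN2 higher and LMNB2 lower, where 73.6% of all genes were called, 36.0% higher and 37.6% lower. LMNA was chosen on these same contrasts, and nothing is read from the counts. For the difference of the changes (Kasumi-1 minus HL60), 5 of 7 were called, all negative, against 63.1% of all genes called and 33.1% called negative. The 3 contrasts share libraries, so their counts are not independent of each other.

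The lines were also compared with each other. The choice of the genes used no contrast between lines, but it did use the LMNA values of these same libraries. Calls of LMNA between lines are therefore not independent of that choice. Before treatment, LMNA and TMPO were lower in Kasumi-1 than in HL60. LMNA averaged 2.82 ± 0.15 FPKM in untreated Kasumi-1 and 14.6 ± 1.3 FPKM in untreated HL60, a log2 difference of −2.03 (SE 0.07). It is given as a description, since the untreated values also gave the rises that chose the set. TMPO averaged 53.3 ± 5.3 FPKM in untreated Kasumi-1 and 74.5 ± 5.4 FPKM in untreated HL60, a difference of −0.48 (SE 0.10, limma adjusted p = 0.00590). The other 6 tested genes had log2 differences between −0.15 and 0.08, none of them called, with the smallest adjusted p for SUN1 (0.0535). In all, 2 of 8 tested members were called, both lower in Kasumi-1, with LMNA counted among them. Of all genes 69.7% were called, 35.9% higher and 33.8% lower. SUN1 passed the threshold without the filter on low values (adjusted p = 0.0347) and after quantile normalization (0.0173). With the replicate number as a block, SUN1 (0.0365) and SUN2 (0.0185) passed it.

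With cinobufagin in both, 7 of 8 tested members differed between the lines, 1 higher and 6 lower in Kasumi-1, where 82.2% of all genes did, 42.0% higher and 40.2% lower. LMNA, counted among the lower ones, averaged 8.10 ± 0.14 FPKM in treated Kasumi-1 and 453 ± 15 FPKM in treated HL60 (log2 difference −5.64). That difference is a description, since the treated values also gave the rises that chose the set. LBR, SUN2 and TMPO were lower in treated Kasumi-1 than in treated HL60, with log2 differences of −1.32, −1.09 and −1.07 (limma adjusted p = 0.000116, 3.39e-06 and 7.69e-05). SUN1 and EMD differed by −0.51 and −0.33 (adjusted p = 0.000139 and 0.0172), and LMNB1 by 0.16 (adjusted p = 0.0347). The EMD call ended without treated HL60 replicate 1 (adjusted p = 0.0879) or treated Kasumi-1 replicate 2 (0.0921), without the filter on low values (0.0633), after median ratio rescaling (0.0581) and after quantile normalization (0.157). The LMNB1 call ended without untreated HL60 replicate 1 (0.0583) or 2 (0.0581), treated HL60 replicate 1 (0.0839) or 2 (0.124), or treated Kasumi-1 replicate 2 (0.173), as well as without the filter (0.0547), with only the 4 treated libraries (0.0857) and with no intensity trend (0.0546). LMNB2 was not called (adjusted p = 0.0619). It passed without the filter (0.0414), after median ratio rescaling (0.00760), after quantile normalization (0.00208) and with the replicate number as a block (0.0147).

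The order of the levels within a group changed with treatment in HL60. From high to low in untreated HL60 it was LMNB1, TMPO, LBR, LMNB2, EMD, SUN2, LMNA, SUN1 and SYNE1, with overlap only between EMD and SUN2. In treated HL60 the order was LMNA, LBR, SUN2, TMPO, LMNB1, LMNB2, EMD, SUN1 and SYNE1, with no overlap between neighbours. Untreated Kasumi-1 ran LMNB1, LBR, TMPO, LMNB2, EMD, SUN2, SUN1, LMNA and SYNE1, with overlap between LBR and TMPO. In treated Kasumi-1, SUN2, LBR, LMNB2 and TMPO followed LMNB1, each overlapping the next, and then came EMD, SUN1, LMNA and SYNE1.

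Among genes with a mean FPKM of at least 5 and group means at least 1 log2 unit apart, 4210 were compared with LMNA over the 8 libraries. The 5 most similar were NFE2L2, NCOA3, MAFG, GPR107 and ATP6V0C, each with a Pearson's r of log2(FPKM + 1) of 0.998. NFE2L2 encodes the stress response factor NRF2, MAFG a small MAF protein, NCOA3 a coactivator and ATP6V0C a subunit of the vacuolar proton pump. MAFG had 17.3 and 17.9 FPKM in treated and 10.6 and 11.3 FPKM in untreated Kasumi-1, and 76.5 and 75.2 FPKM in treated and 20.1 and 20.5 FPKM in untreated HL60. The libraries form 4 groups, so such an r mainly records a similar relative spacing of the group means on the log2 scale. From high to low these means ran treated HL60, untreated HL60, treated Kasumi-1 and untreated Kasumi-1. For LMNB1, which hardly varied, the nearest of 4211 genes included LMBR1, SCOC, VPS13A and AGPS (r between 0.941 and 0.945).

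**Figure D4:**
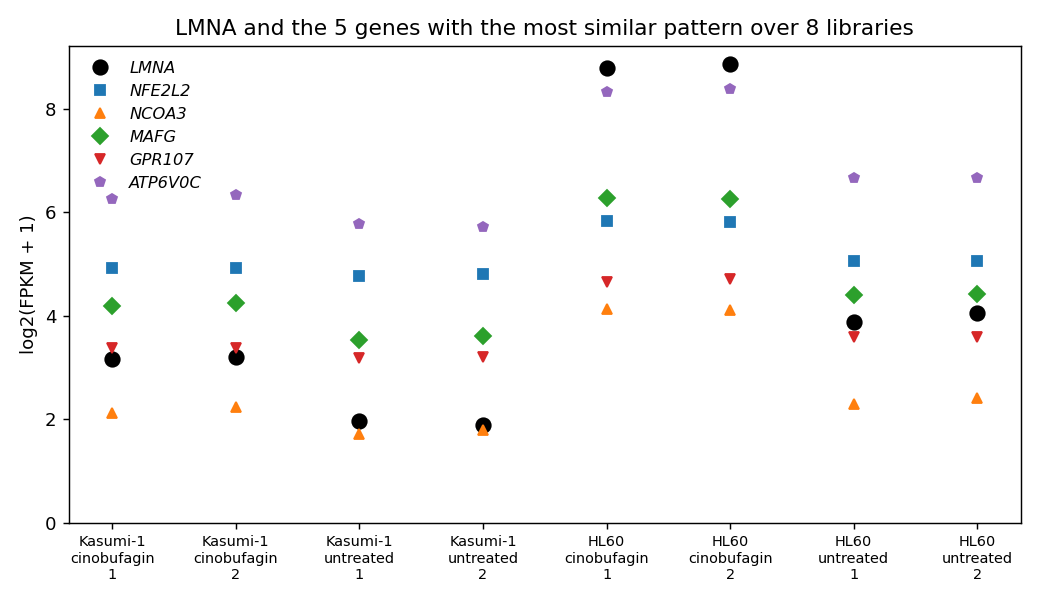
Log2(FPKM + 1) of LMNA and its 5 most similar genes in the 8 libraries. All 6 run highest in treated HL60 and lowest in untreated Kasumi-1, and LMNA spans the widest range.

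Other genes of the envelope and of lamin metabolism were followed as lists. Of 23 other envelope membrane and lamina-binding genes 21 were tested. In Kasumi-1, 3 were higher and 2 lower, with a median log2 change of −0.05, against −0.04 over all genes tested. In HL60, 8 were higher and 5 lower, with a median of −0.0029, against −0.01 over all genes tested. Of all genes 10.1% were called higher and 16.2% lower in Kasumi-1, and 36.0% higher and 37.6% lower in HL60. Counts in Kasumi-1 rested on single libraries for most lists: without any 1 library, this list had 0 to 2 higher and 0 to 2 lower. ANKLE2, which helps the envelope reform after mitosis, rose in HL60 to 60.6 ± 1.4 FPKM, against 25.5 ± 1.6 untreated (limma adjusted p = 4.77e-06). TMEM194A, also named NEMP1, rose in HL60 to 54.2 ± 0.21 FPKM, against 23.6 ± 2.0 (adjusted p = 1.55e-05). ANKLE1, a LEM-domain nuclease, fell in HL60 to 5.15 ± 0.38 FPKM, against 25.7 ± 0.30 (adjusted p = 1.29e-06).

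Of 11 other LINC complex genes and motor partners only 5 were tested. In Kasumi-1, 0 were higher and 1 was lower (median 0.10), a count that was 0 without any 1 of the Kasumi-1 libraries or either treated HL60 library. In HL60, 3 were higher and 0 lower (median 0.56). Of all genes 16.2% were called lower in Kasumi-1 and 36.0% higher in HL60. C14orf49, the gene of nesprin-3, rose in HL60 to 8.37 ± 0.13 FPKM, against 4.48 ± 0.27 (limma adjusted p = 7.67e-05), and KIF5B, a kinesin heavy chain, to 48.0 ± 1.3, against 25.0 ± 1.4 (adjusted p = 6.88e-05). SYNE2, the gene of the other giant nesprin, was listed at no more than 0.108 FPKM in any library.

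Lamin processing genes did not move with LMNA in size. Of 6 genes that farnesylate, cleave, methylate or bind prelamin A, 1 was higher in Kasumi-1 (median −0.01) and 4 were higher in HL60 (median 0.44), with 0 lower in either, where 10.1% of all genes were called higher in Kasumi-1 and 36.0% in HL60. The Kasumi-1 count was 0 without any 1 of its libraries or either untreated HL60 library. RCE1, a CaaX protease, rose in HL60 to 20.9 ± 0.86 FPKM, against 14.6 ± 0.73 (limma adjusted p = 0.00768). NARF, which binds prenylated prelamin A, rose to 45.7 ± 2.0, against 32.5 ± 0.94 (adjusted p = 0.000281). ZMPSTE24, the protease that matures lamin A, was not called: it had 13.2 and 17.1 FPKM in treated and 15.4 and 20.3 in untreated Kasumi-1 (adjusted p = 0.402), and 18.4 and 22.2 in treated and 16.4 and 19.1 in untreated HL60 (adjusted p = 0.381).

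Genes whose products take the lamina apart and put it back had called members in both lines, beside 26.3% of all genes called in Kasumi-1 and 73.6% in HL60. Among 13 kinase, phosphatase and caspase genes that act on lamins, 2 were higher and 2 lower in Kasumi-1 (median 0.01), and 10 were higher and 2 lower in HL60 (median 0.57). The Kasumi-1 counts were 1 to 2 higher and 0 to 2 lower without 1 library, and the 2 lower in HL60 became 1 without untreated replicate 2 or either treated replicate. CDK1, the mitotic kinase that phosphorylates lamins, rose in HL60 to 129 ± 2.2 FPKM, against 56.6 ± 0.56 (limma adjusted p = 1.8e-06), and its cyclin CCNB1 to 86.8 ± 3.3, against 22.1 ± 0.95 (adjusted p = 4.26e-06). PRKCB, a protein kinase C that phosphorylates lamin B1, rose in Kasumi-1 to 20.1 ± 0.38 FPKM, against 14.8 ± 0.37 (adjusted p = 0.00508). Of 18 envelope reassembly genes, 3 were higher and 0 lower in Kasumi-1 (median −0.03), and 12 were higher and 2 lower in HL60 (median 0.31). The Kasumi-1 counts were 0 to 3 higher and 0 to 1 lower without 1 library, and the 2 lower in HL60 became 1 without untreated replicate 1 or treated replicate 2. The ESCRT-III gene CHMP4B rose in HL60 to 131 ± 5.1 FPKM, against 59.7 ± 1.8 (adjusted p = 9.62e-06), and IST1 to 104 ± 3.0, against 49.3 ± 2.1 (adjusted p = 9.25e-06).

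Of 13 tested genes of peripheral heterochromatin, 0 were higher and 3 lower in Kasumi-1 (median −0.05), and 6 were higher and 4 lower in HL60 (median 0.09), where 26.3% of all genes were called in Kasumi-1 and 73.6% in HL60. EHMT2, the G9a histone H3 methyltransferase, fell in HL60 to 7.14 ± 0.24 FPKM, against 35.7 ± 0.89 (limma adjusted p = 5.49e-07). CBX5, which encodes HP1 alpha, a partner of LBR, fell to 5.93 ± 0.29, against 14.2 ± 1.8 (adjusted p = 0.000154). SUV39H2 fell in both lines, in Kasumi-1 to 10.1 ± 0.38 FPKM, against 14.7 ± 0.71 (adjusted p = 0.00657), and in HL60 to 2.99 ± 0.28, against 5.41 ± 0.27 (adjusted p = 0.000222).

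LBR shares a sterol reductase activity with the late steps of sterol synthesis, whose other genes were followed as a list. Of 10 such genes 8 fell in Kasumi-1 and 10 in HL60, and 0 rose in either, with medians of −0.42 and −2.08, where 16.2% and 37.6% of all genes were called lower. The Kasumi-1 count was 5 without untreated replicate 1 or treated replicate 2. TM7SF2, which encodes the other C14 sterol reductase, had 28.6 and 28.7 FPKM in treated and 33.0 and 33.8 in untreated Kasumi-1 (limma adjusted p = 0.0292). In HL60 it fell to 2.49 and 2.68 FPKM, against 7.32 and 7.12 untreated (adjusted p = 3.14e-06), where LBR rose. In Kasumi-1 the log2 change was −0.22 for TM7SF2 and −0.22 for LBR, that of LBR not called. CYP51A1, the lanosterol demethylase, fell in Kasumi-1 to 12.1 ± 2.1 FPKM, against 26.6 ± 2.1 (adjusted p = 0.00284), and in HL60 to 1.68 ± 0.12, against 18.1 ± 1.2 (adjusted p = 2.66e-06).

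**Figure D5:**
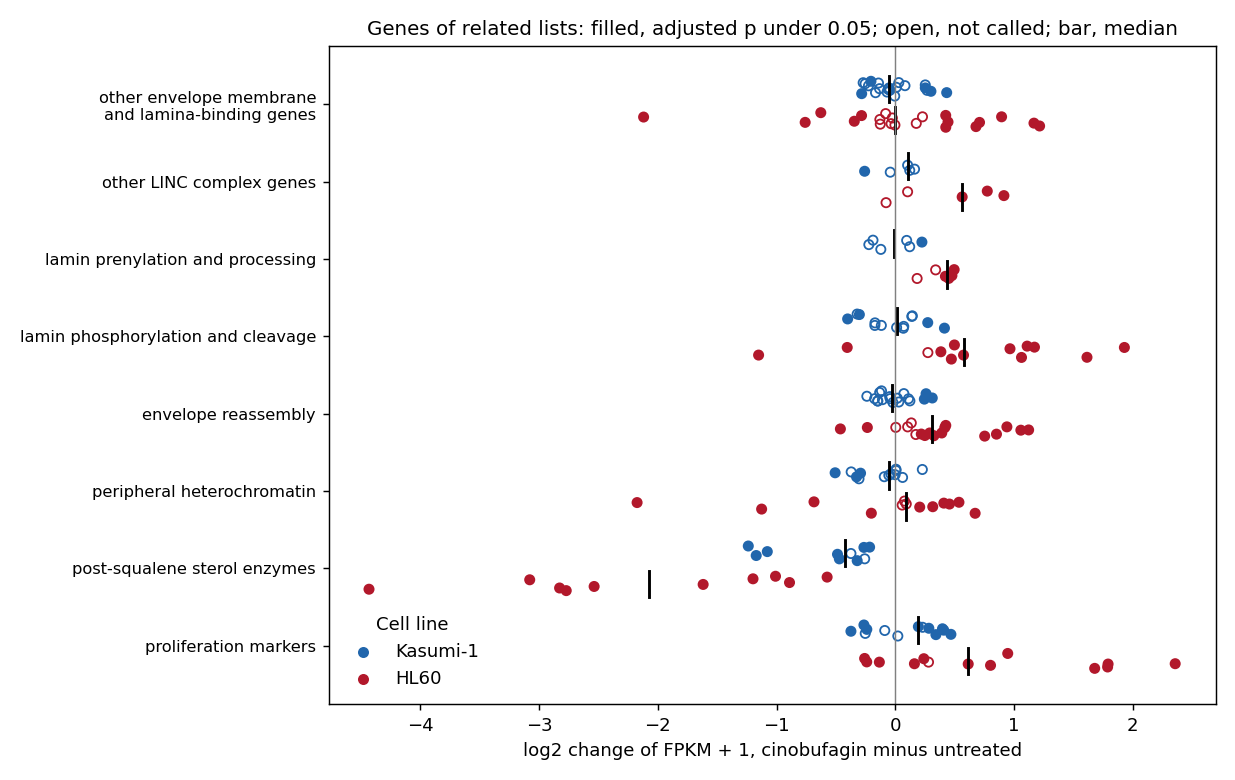
Log2 change of FPKM + 1 with cinobufagin for the tested genes of 8 related lists, Kasumi-1 above HL60 in each list. Filled points were called, open points were not, and bars are list medians, which reach −2.08 for late sterol enzymes in HL60.

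Markers of proliferation and of other cells were read beside these results. Of 13 proliferation genes, 6 were higher and 3 lower in Kasumi-1, and 9 were higher and 3 lower in HL60, where 26.3% of all genes were called in Kasumi-1 and 73.6% in HL60. Without 1 Kasumi-1 library, whichever it was, 2 to 3 were higher, the 3 lower in Kasumi-1 became 1 without untreated replicate 1, and the 3 lower in HL60 became 1 without untreated replicate 2. Their summed FPKM was 717 and 718 in treated and 741 and 736 in untreated Kasumi-1, and 1558 and 1522 in treated and 1078 and 1070 in untreated HL60. NDC80, a kinetochore gene, rose in Kasumi-1 to 23.2 ± 0.68 FPKM, against 17.2 ± 0.87 (limma adjusted p = 0.00706), and in HL60 to 110 ± 7.6, against 20.6 ± 0.072 (adjusted p = 5.45e-07). MYC had 199 and 202 FPKM in treated and 308 and 310 in untreated Kasumi-1, and 30.3 and 29.2 in treated and 786 and 749 in untreated HL60.

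Of 12 macrophage markers 6 passed the filter, of which 1 was higher and 1 lower in Kasumi-1 and 5 were higher and 0 lower in HL60, where 10.1% of all genes were called higher in Kasumi-1 and 36.0% in HL60. Their summed FPKM was 26.5 and 28.4 in treated and 15.1 and 15.3 in untreated Kasumi-1, and 75.3 and 77.8 in treated and 16.8 and 16.3 in untreated HL60. C1QB, C1QC and MARCO were listed at 0 in treated HL60. Fibroblast and epithelial markers, of cells rich in lamin A, summed to 72.8 and 75.7 FPKM in treated and 77.4 and 78.6 in untreated Kasumi-1, nearly all from EPCAM. In HL60 they summed to 0.313 and 0.518 FPKM with the drug and 1.02 and 0.941 without, with COL3A1, DCN, PDGFRB and KRT5 listed at 0 in all 4 HL60 libraries. Of 12 lymphoid and erythroid markers 3 passed the filter, with sums of 12.3 and 8.13 FPKM in treated and 16.1 and 16.9 in untreated Kasumi-1, and 2.13 and 1.64 in treated and 4.16 and 4.36 in untreated HL60. The part of the proliferation and macrophage genes in the changes of the envelope genes was not tested.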

How the data were processed

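The authors deposited 1 table of FPKM values with a column for each of the 8 libraries. Genome build hg19, Cufflinks 2.2.1, HISAT2 2.1.0 and bcl2fastq 2.20.0 are named in the submitters' processing notes, and the TruSeq Stranded mRNA kit in the labels' protocols. The sources used here do not give annotation, strand setting or read totals, so no count model was fitted and no counting interval set. Relative depth is the inverse of the most frequent FPKM ratio to untreated HL60 replicate 1 among genes under 0.3 FPKM (1004 to 1238 genes).

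From these values log2(FPKM + 1), which understates changes of low genes, was tested with limma 3.58.1 in R 4.3.3. The fit used all 8 libraries, 1 mean per group (4 residual degrees of freedom), an intensity trend and Benjamini-Hochberg adjustment. A gene was tested where 2 or more libraries reached FPKM 1, which left 12511 genes and set 13082 aside. The procedure was tested on simulated data. A permutation of 2 against 2 libraries cannot go below p = 0.33 and was not used.

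The members and lists were chosen with earlier results of these data known. Named are all members, the 5 genes most correlated with LMNA and with LMNB1, up to 3 called genes of each list per line, and MYC; some items that this rule covers are not reported here. ZMPSTE24, TM7SF2, SYNE2, marker genes and overlapping genes were named after their values were seen. All 158 list entries had a row, with older symbols matched by hand. Sequences are from RefSeq (GRCh38.p14) and GENCODE release 29 and were used without coordinates of the table.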

Additional observations from a re-analysis of the deposited data

Results flagged for a closer look

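The cinobufagin change differed between Kasumi-1 and HL60 by a limma test of the difference itself for 5 of the 7 members with a test. As Kasumi-1 minus HL60 on the log2 scale, the difference was −1.29 for LBR (changes of −0.22 and 1.07), −0.98 for SUN2 (0.54 and 1.52), −0.59 for TMPO (−0.29 and 0.30), −0.40 for EMD (−0.35 and 0.05) and −0.36 for SUN1 (−0.01 and 0.35). The adjusted p-values were 0.00152, 0.000104, 0.0124, 0.0404 and 0.00689, with 63.1% of all genes called. The direction was the same within replicate numbers 1 and 2 for all 5 genes. For LBR, the differences were −1.32 and −1.25. For EMD, they were −0.33 and −0.47.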

How the results depend on the processing

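Each member was refitted under up to 17 alternatives, which gave 672 values. Of these 601 kept direction and side of the threshold, 36 lost a call, 13 gained one, 17 changed sign and 5 moved by more than the replicate SD (all 5 for LMNA, which has no test). In fits without 1 library the lone sample of its group is assumed to vary like the other groups, and a fit of only the 4 libraries compared gives no difference between lines. LBR and SUN2 in HL60, SUN2 in Kasumi-1, LMNB2 and SUN1 in HL60, and TMPO between untreated lines kept their calls in all 17. LMNA between untreated lines also stayed past the threshold in all 17. Its values entered the choice of the set, so nothing is drawn from that.

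The count of called members in Kasumi-1, 2 in the report, was 1 without the filter on low values, after median ratio rescaling, after quantile normalization and with only the 4 libraries compared, and 1 to 2 when a library was left out. Labels share replicate numbers, so a fit with the replicate number as a block was run. Deviations of same-numbered libraries correlated between 0.125 and 0.331 across genes, and between 0.265 and 0.48 without short RNAs and repeated symbols. With 2 numbers per group, and no label that ties a number to a batch or day, the numbers were not treated as pairs. The block raised the count to 4 in Kasumi-1 (adding LBR, adjusted p = 0.0327, and TMPO, 0.0047) and gave 4 for untreated Kasumi-1 against untreated HL60, where the report has 2 (adding SUN1, 0.0365, and SUN2, 0.0185). It also called LMNB2 for the difference between lines (0.0422) and between treated lines (0.0147). In HL60 it left the count at 5. Calls over all genes in Kasumi-1 also moved, from 3292 to 1040 with only the 4 libraries compared. Their number under the block is not reported here, and nothing is read from the shifts in member counts.

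Sign changes occurred only for values that were not called. For EMD in HL60 the change became −0.042 with quantile normalization and ran from −0.037 to 0.139 without 1 library, and EMD between untreated lines from −0.017 to 0.159. LBR between untreated lines became 0.0022 with median ratio rescaling, 0.0032 with quantile normalization and −0.185 to 0.129 without a library. LMNB1 in Kasumi-1 became 0.028, 0.014 and −0.088 to 0.037 in the same order, and SUN1 in Kasumi-1 0.037, 0.027 and −0.050 to 0.026. LMNB2 between untreated lines became 0.016 with median ratio rescaling and −0.050 to 0.022 without 1 library.

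LMNA's change ran from 1.21 to 1.49 in Kasumi-1 and from 4.78 to 4.97 in HL60. The calls over all genes in Kasumi-1, 3292, were 1040 with only the 4 libraries compared and 1621 to 2067 without a Kasumi-1 library. List counts of 0 to 8 in Kasumi-1 moved by more than 1.5 times under several alternatives: with only the 4 libraries compared, proliferation genes had 1 higher and 1 lower and late sterol enzymes 5 lower. In HL60 late sterol enzymes had 10 lower under every alternative. Median ratio rescaling raised the share of higher calls in Kasumi-1 to 50.5%, from 38.5%. Depth in reads is not known, which limits what can be said of genes as low as SYNE1.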
